A study of Mus musculus with 6 samples.

Results

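Glucocorticoid-induced genes of muscle were followed in quadriceps of mice that lack or keep Pofut1 in muscle. The set held 9 genes: Ddit4, Fkbp5, Sgk1, Tsc22d3, Klf15, Zbtb16, Cebpd, Pdk4 and Angptl4. They are read by 18 of the 45101 probe sets of the array, and all 9 are among the 18194 named genes. Cre under the skeletal alpha-actin promoter was present in every sample: 3 knockout samples joined it to floxed Pofut1 on both alleles, and 3 control samples to wild-type Pofut1. All samples were quadriceps of C57/Bl6 mice aged 2 months. The alpha-actin promoter drives cre in muscle fibres, so other cells of the tissue keep Pofut1, whose enzyme places O-fucose on EGF-like repeats. The labels name no steroid treatment and no hormone level, so the glucocorticoid state of the mice is not known from them.

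Glucocorticoids are adrenal steroids that enter the cell and bind the glucocorticoid receptor, the product of Nr3c1. The receptor then moves to the nucleus and binds DNA at short palindromic glucocorticoid response elements. In skeletal muscle the hormone slows protein synthesis, speeds the use of amino acids and shifts fuel use from glucose to fat. Blood glucocorticoid follows a daily rhythm and climbs with fasting and stress. The 9 genes cover feedback on the receptor (Fkbp5), anti-inflammatory action (Tsc22d3) and growth and kinase signalling (Ddit4, Sgk1). They also cover transcription factors (Klf15, Cebpd, Zbtb16) and fuel choice (Pdk4, Angptl4).

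The RefSeq promoter table of build GRCm38.p6, which gives 250 bases before and 50 after each start, held 6 of the 9 genes in 13 windows. It held no window of Zbtb16, Cebpd and Angptl4, so these were not searched. Both strands were searched for the element GNACANNNTGTNC, for the hexamer TGTTCT, which is a single arm of it, and for the E-box CACGTG, a site known from clock-controlled genes. These motifs were chosen after the expression values were seen. The full element lay in 0.475% of all 32851 windows, the hexamer in 19% and the E-box in 7.15%. Among the members the full element was found only in 1 of the 6 windows of Sgk1, the member with the most windows. The hexamer was found in that window, in other windows of Sgk1 and in a window of Tsc22d3. An E-box was found in that window of Sgk1 and in the window of Fkbp5. Klf15 held 3 E-boxes, and 0.0883% of all windows held at least 3. The 250 bases before the start are shown on the plus strand for the Sgk1 window with the full element and for the Klf15 window. The full element and the E-boxes are in capitals. The window of Sgk1 is chr10:21993640-21993889 and that of Klf15 is chr6:90462326-90462575.
Sgk1: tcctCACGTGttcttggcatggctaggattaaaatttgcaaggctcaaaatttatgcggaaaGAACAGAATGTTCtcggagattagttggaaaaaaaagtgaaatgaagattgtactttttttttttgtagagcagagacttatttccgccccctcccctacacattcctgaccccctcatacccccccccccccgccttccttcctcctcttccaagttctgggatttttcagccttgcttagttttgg
Klf15: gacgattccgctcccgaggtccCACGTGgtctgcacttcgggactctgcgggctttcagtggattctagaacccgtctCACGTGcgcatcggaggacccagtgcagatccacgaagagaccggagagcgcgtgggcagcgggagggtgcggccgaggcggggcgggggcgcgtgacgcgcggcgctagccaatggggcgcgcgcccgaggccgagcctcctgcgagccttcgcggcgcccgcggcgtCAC
The element of Sgk1 begins 188 bases before that start, at position 21993702 of chromosome 10, and both of its arms match the hexamer, which also overlaps the E-box farther upstream. The last of the 3 E-boxes of Klf15 spans its start, so only its first letters are shown. Each match is a description of letters in a window and not a site of binding.

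The values are probe set intensities on a linear scale, and differences are given as knockout minus control on the log2 scale. All 12 muscle fibre markers lay above the background, an intensity of 78.1 set by genes of other tissues, with array means of 12.8 to 13.1 on the log2 scale. The array labelled control replicate 3 stood apart: its correlation with any other over all genes was at most 0.945, and that among the remaining 5 at least 0.980. Its Gapdh 3' over 5' intensity ratio, a sign of RNA and cDNA integrity, was 10.5, against 3.70 in knockout replicate 2 and 1.73 to 1.97 in the remaining arrays. For Actb these ratios were 5.85, 4.34 and 1.67 to 1.83 in the same order, so knockout replicate 2 was closer to that array. The Pofut1 probe set read 194.3 to 231.1 in the knockout and 301.4, 379.8 and 90.6 in the controls. Its value in the array labelled control replicate 3 thus goes against the label and lies below all knockout arrays. The part of RNA integrity in that value was not tested. The sources used here do not place this probe set inside or outside the deletion. Values below that turn or move by over 1.5 times without the array labelled control replicate 3 are also given without it.

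In the knockout 6 of the 9 members had higher mean values, as did 46.3% of all genes, and none passed the test. Ddit4 and Klf15 stood highest in the knockout relative to control, at 3.09-fold and 1.81-fold, and Fkbp5 lowest, at 1.43-fold below control. Sgk1 was the only member whose groups did not overlap in its main probe set, against 9.01% of all genes. In limma 0 of 9 members and 0 of 18194 genes (0%) passed an adjusted p of 0.05. At an unadjusted p under 0.05 there were 2 members, Ddit4 and Sgk1, both higher in the knockout, and 469 genes (2.58%). Over single probe sets 3 of the members' 18 reached that level, against 2.03% of all, and 2 had groups without overlap, against 7.98%. The median difference of the members was 0.33, and that of all genes was -0.01. It was 0.16 without the array labelled control replicate 3 and 0.50 without control replicate 2.

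**Figure D1:**
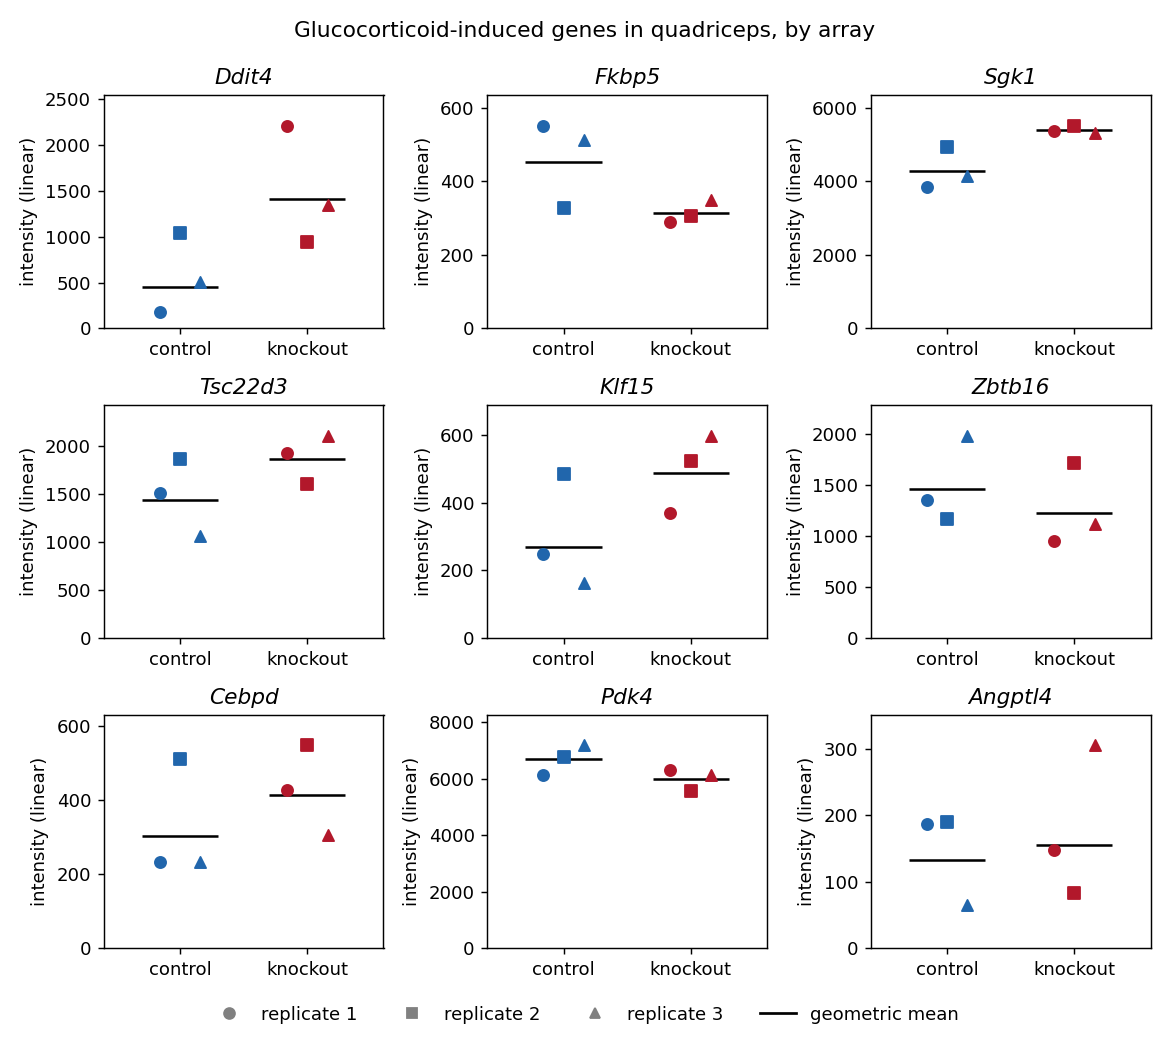
Intensity on a linear scale starting at 0 for the main probe set of each gene in 3 control (blue) and 3 knockout (red) arrays, with a symbol for each replicate number and a bar at the geometric mean. Control replicate 2 (blue square) lies within the knockout range for 7 of 9 genes, and only Sgk1 has groups that do not overlap.

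Fkbp5 encodes a co-chaperone that lowers the hormone affinity of the receptor and is itself induced by it. Its main probe set read 289.9, 306.9 and 350.2 in the knockout and 551.0, 326.2 and 511.2 in control, here and below in the order of the replicate numbers 1 to 3. Control replicates 1 and 3 were high and control replicate 2 lay inside the knockout range, so the groups overlapped. The difference was -0.52 ± 0.24 (SE, n = 3 and 3; limma adjusted p = 0.971). It kept its sign without the array labelled control replicate 3, at -0.43. Its other probe sets were below background, at 40.2 to 71.9.

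Tsc22d3 encodes GILZ, a leucine zipper protein that carries part of the anti-inflammatory action of glucocorticoids. The main probe set read 1924, 1610 and 2109 in the knockout and 1510, 1860 and 1060 in control. The lowest value was that of the array labelled control replicate 3, and control replicate 2 again lay among the knockout arrays. The difference was 0.38 ± 0.22 (SE; limma adjusted p = 0.971), and 0.16 without that array. The second bright probe set read 843.6, 617.7 and 962.8 in the knockout and 811.9, 911.5 and 508.9 in control. Its difference was 0.14 ± 0.28 and turned to -0.11 without that array, and its lowest values were in both arrays with a high Gapdh ratio. With that ratio as a term in the model the difference of the main probe set was 0.22. Its remaining probe sets lay near or below background, at 39.9 to 102.1.

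Ddit4 encodes REDD1, a repressor of the growth kinase complex mTORC1, and showed the widest spread of the set. It read 2213, 942.2 and 1345 in the knockout and 181.5, 1040 and 504.6 in control. Control replicate 2 exceeded knockout replicate 2, so the groups overlapped, while control replicate 1 was the lowest of all. The highest and lowest arrays differed 12.2-fold, more than in 99.8% of genes above background, and the controls alone differed 5.73-fold. The difference between groups was 1.63 ± 0.63 (SE; 95% interval 0.14 to 3.11; unadjusted p = 0.0357, limma adjusted p = 0.971). The exact two-sided permutation p was 0.2, where 3 against 3 arrays cannot go below 0.1. Without control replicate 1 the difference was 0.96, and without the array labelled control replicate 3 it was 1.70.

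Sgk1 encodes a kinase related to Akt that is induced by glucocorticoids and mineralocorticoids. It read 5355, 5507 and 5300 in the knockout and 3852, 4924 and 4138 in control. All knockout arrays lay above all controls, and they differed from each other by only 1.04-fold, against 1.28-fold among controls. The difference was small, at 0.33 ± 0.12 (SE; 95% interval 0.06 to 0.60; 1.26-fold). The unadjusted p was 0.0242, the limma adjusted p 0.971 and the exact two-sided permutation p 0.1, the smallest this design allows. Of all genes 3.33% had knockout arrays above all controls. The difference was 0.31 without the array labelled control replicate 3, where 10.3% of genes had knockout arrays above both remaining controls.

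Klf15 encodes a zinc finger factor that turns on the breakdown of branched-chain amino acids in muscle. It read 368.9, 521.8 and 598.1 in the knockout and 248.6, 483.7 and 162.6 in control. Control replicate 2 lay between the knockout arrays, and the other controls lay below all of them. The difference was 0.85 ± 0.41 (SE; unadjusted p = 0.0754, limma adjusted p = 0.971). Without the array labelled control replicate 3, the lowest, it was 0.49, and without control replicate 2 it was 1.27.

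Cebpd encodes a basic leucine zipper factor of the acute response, and its 2 probe sets gave the same picture. The brighter read 427.2, 547.3 and 304.8 in the knockout and 231.6, 510.3 and 233.2 in control. The highest arrays were replicate 2 of each group, and control replicates 1 and 3 were below all knockout arrays. These 2 high arrays were also those with Xist, the transcript of the inactive X chromosome in females, at 1349 and 1414, against at most 67.6 in the others. The difference between groups was 0.46 ± 0.37 (SE; limma adjusted p = 0.971), and leaving out the array labelled control replicate 3 gave 0.27. A term for the Xist pattern cannot move this difference, because Xist was high in replicate 2 of each group. In the other probe set the difference was 0.49 ± 0.44, and 0.23 without the array labelled control replicate 3. Without both arrays of high Gapdh ratio the difference of the main probe set was 0.07.

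Zbtb16 encodes PLZF, a zinc finger repressor known as a strongly glucocorticoid-induced transcript, and its probe sets differed from each other. The brightest, which has the suffix x, read 954.8, 1710 and 1113 in the knockout and 1353, 1169 and 1981 in control. This suffix marks a probe set whose probes may also bind other transcripts. Its 2 highest values were in the arrays with the high Gapdh ratios of 10.5 and 3.70, and the difference between groups was -0.26 ± 0.28 (SE; limma adjusted p = 0.971), or -0.0798 with that ratio as a term and -0.043 without the array labelled control replicate 3. In the second brightest the values were 261.6, 237.6 and 333.9 in the knockout and 534.7, 424.8 and 345.5 in control. There all knockout arrays lay below all controls, with a difference of -0.64 ± 0.24 (SE). The unadjusted p of this probe set was 0.0311 and its limma adjusted p over all probe sets 0.987, and without the array labelled control replicate 3 the difference was -0.79. The dimmest probe set was below background, at 59.6 to 71.5.

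**Figure D2:**
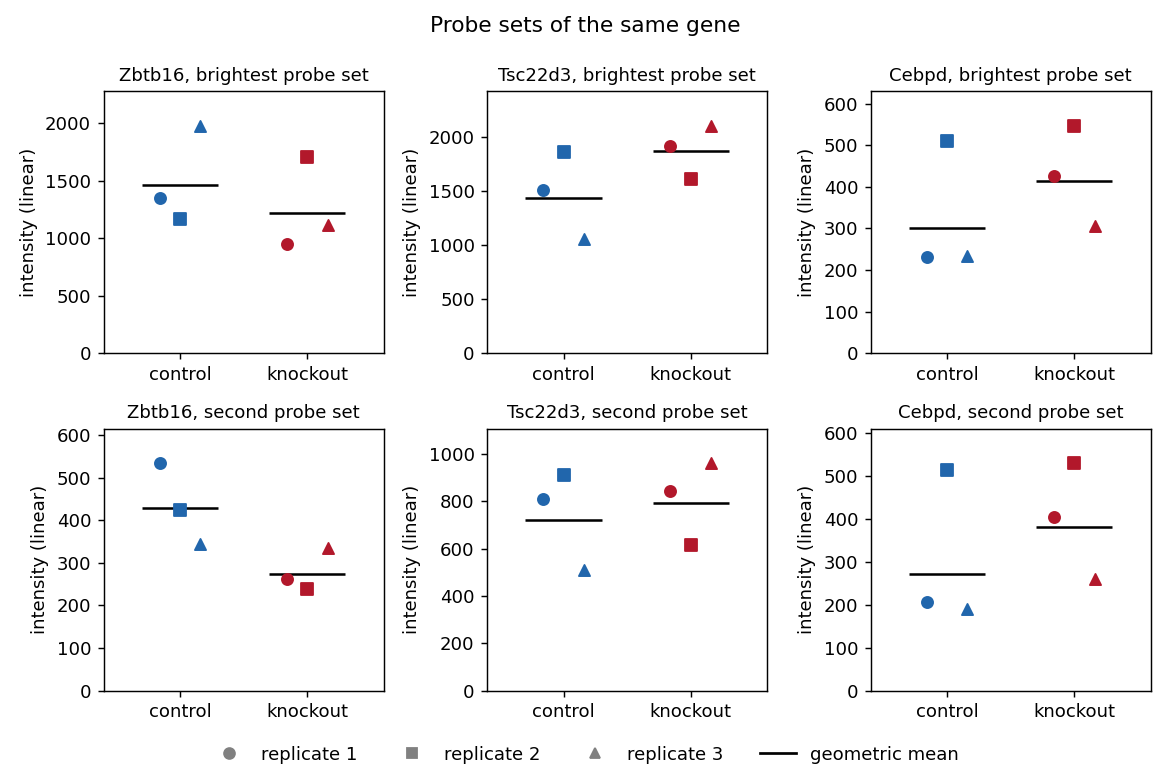
Intensity on a linear scale starting at 0 for 2 probe sets each of Zbtb16, Tsc22d3 and Cebpd (columns) in control (blue) and knockout (red) arrays, with a symbol for each replicate number and a bar at the geometric mean. The probe sets of Cebpd place the arrays alike, whereas the brightest of Zbtb16 is highest in control replicate 3 and knockout replicate 2 and its second is lowest in the knockout.

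Pdk4 encodes the kinase that shuts off pyruvate dehydrogenase and so spares glucose. It read 6315, 5584 and 6148 in the knockout and 6148, 6773 and 7187 in control. The arrays spanned only 1.29-fold, with the highest value in the array labelled control replicate 3, and the groups met at a tied value. The difference was -0.16 ± 0.10 (SE; 95% interval -0.40 to 0.08; limma adjusted p = 0.971), and -0.10 without that array.

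Angptl4 encodes a secreted inhibitor of lipoprotein lipase that is induced by glucocorticoids and by fatty acids through PPAR receptors. The main probe set read 147.6, 83.5 and 304.9 in the knockout and 187.2, 190.0 and 64.6 in control. Knockout replicate 3 was the highest, and the lowest were the array labelled control replicate 3 and knockout replicate 2. The difference was 0.24 ± 0.60 (SE; limma adjusted p = 0.976) and turned to -0.28 without the array labelled control replicate 3. Adipocytes also express Angptl4, and 8 of 10 adipocyte markers were measured, 7 of them above background. Their mean level on the log2 scale was likewise highest in knockout replicate 3, at 9.79, and lowest in the array labelled control replicate 3, at 8.13, and knockout replicate 2, at 8.73, and between these in the remaining arrays. These 2 low arrays were also those with the high Gapdh ratios of 10.5 and 3.70. With that ratio as a term the difference of Angptl4 was -0.17. The single adipocyte markers were not all alike. Thrsp, Pparg, Retn, Cidec, Adipoq and Lep were lowest in the array labelled control replicate 3. Plin4 was highest there, at 1482, and Fabp4 was lowest in knockout replicate 2. Thrsp and Retn were not low in knockout replicate 2, at 1302 and 829.1. The part of adipocytes or of RNA integrity in the values of Angptl4 was not tested, and in whole muscle fewer cells of a type cannot be told apart from less RNA per cell. The other probe set of Angptl4 was below background, at 38.3 to 42.6.

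**Figure D3:**
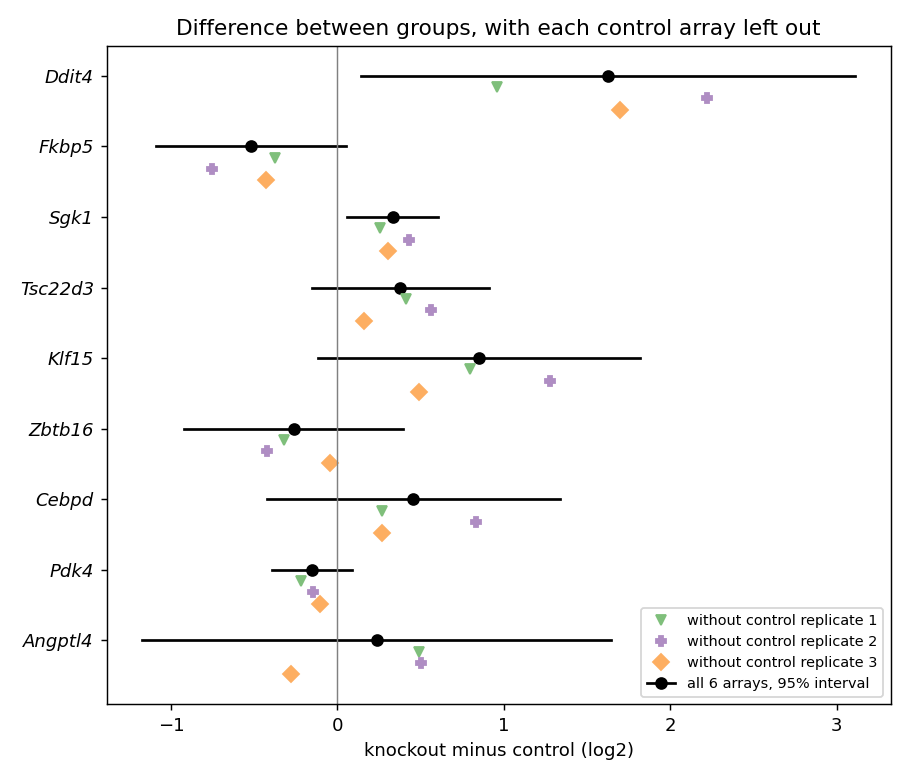
Knockout minus control difference on the log2 scale for each gene over all 6 arrays (black point, with its unadjusted 95% interval) and with each control array left out in turn (coloured symbols). The interval lies above 0 for Ddit4 and Sgk1, the differences of Ddit4, Klf15 and Fkbp5 are farthest from 0 without control replicate 2, and Angptl4 turns from 0.24 to -0.28 without control replicate 3.

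The control arrays differed among themselves for these genes. Control replicate 2 lay within the range of the 3 knockout arrays for 7 of 9 members, control replicate 1 for 3 and the array labelled control replicate 3 for 0. Over the 9967 genes above background these shares were 51.2%, 48.3% and 22.3%. Control replicate 2 was also the only control with high Xist, and the part of sex in these values was not tested. Leaving out control replicate 2 gave 6 members with an unadjusted p under 0.05 in place of 2 (3.59% of genes), namely Ddit4, Fkbp5, Sgk1, Tsc22d3, Klf15 and Cebpd, and still 0 with an adjusted p under 0.05 in limma. At the unadjusted level there were 0 without control replicate 1 (2.37% of genes), knockout replicate 1 (1.56%) or knockout replicate 3 (1.56%). There was 1 without knockout replicate 2 (1.52%) and 1 without the array labelled control replicate 3 (5.99%), Ddit4 in the former fit and Sgk1 in the latter. The range over controls was wider than over knockout arrays for 7 of 9 members, and for 71.6% of genes above background.

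Outside the set 6 genes had the pattern over the 6 arrays most like the mean of the members. Likeness was the root-mean-square distance between profiles scaled to the same mean and spread, where 0 is the same shape, over 2976 genes above background with a spread at least that of the median member. The nearest were Arrdc2, an alpha-arrestin, at 0.259, its relative Arrdc3 at 0.294, the peptidylarginine deiminase gene Padi2 at 0.296, the organic anion transporter gene Slc10a6 at 0.307, the clock gene Per1 at 0.313 and the mitochondrial carrier gene Slc25a25 at 0.437. Arrdc2 read 745.1, 705.1 and 925.2 in the knockout and 141.8, 684.9 and 155.1 in control. Per1 read 335.9, 309.7 and 363.0 in the knockout and 108.2, 283.4 and 116.0 in control. In both genes control replicate 2 was close below the knockout arrays and the other controls were far below. Each member is itself part of the mean, so the distances of members cannot be set beside those of the 6 genes. The members themselves split: Klf15 was nearest to their mean, at 0.40, followed by Sgk1 at 0.49, Tsc22d3 at 0.53, Ddit4 at 0.55, Cebpd at 0.69 and Angptl4 at 0.90. Pdk4, Zbtb16 and Fkbp5 lay far from it, at 1.43, 1.63 and 1.76, each with its highest value in 1 of the arrays labelled control replicates 1 and 3. The window of Slc10a6 held a full response element, GAACACGATGTGC, that begins 163 bases before its start on the minus strand of chromosome 5, from 103629554 to 103629566. Among the 6 genes and their 11 windows it was the only one. A window of Per1 held an E-box, as did 7.15% of all windows.

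**Figure D4:**
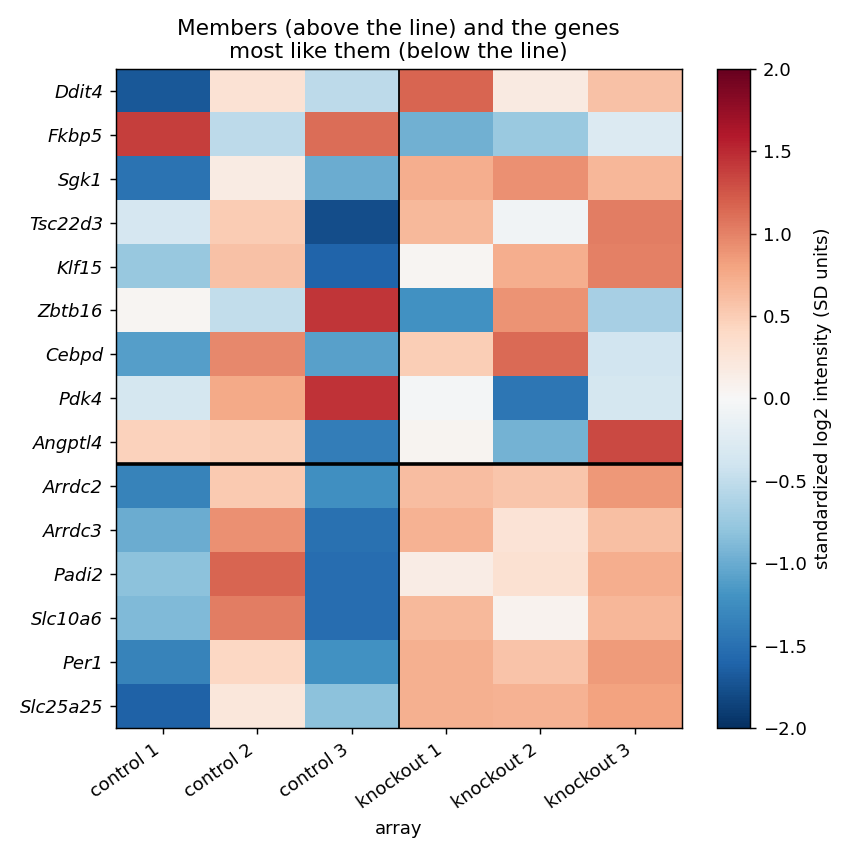
Log2 intensity of each gene across the 6 arrays (columns), scaled to a mean of 0 and a spread of 1 within the gene, for the 9 members above the line and the 6 genes with the most similar pattern below it. Control replicates 1 and 3 are low and control replicate 2 is near the knockout arrays for Ddit4, Sgk1, Klf15, Cebpd and all 6 genes below the line, while Fkbp5 is high in control replicates 1 and 3.

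The arrays labelled control replicates 1 and 3, both low for Ddit4, Sgk1, Klf15 and Cebpd, also had the lowest mean levels of the muscle fibre markers, at 12.84 and 12.92 on the log2 scale, against 12.99 in control replicate 2 and 12.97 to 13.05 in the knockout. The single fibre markers went different ways. In 3 of the 12, Acta1, Tnnt3 and Myh4, all controls, replicate 2 included, lay below all knockout arrays, against 3.33% of all genes. Myh1, Myh2 and Mb were instead lowest in control replicate 1 and highest in the array labelled control replicate 3. Endothelial markers were at 7.54, 7.71 and 7.71 in control replicates 1 to 3 and at 7.75 to 7.93 in the knockout. Of the 10 single endothelial markers 7 were higher and 3 lower in the knockout. Cdh5 was higher without overlap and Egfl7 lower without overlap, against 3.33% and 5.68% of all genes. The mean of the macrophage markers was highest in control replicate 1, at 9.43, and lowest in the array labelled control replicate 3, at 8.25. It was 8.62 in control replicate 2 and 8.38 to 9.02 in the knockout. The single macrophage markers also went different ways. C1qb and Adgre1 were highest in the array labelled control replicate 3, whereas C1qa, C1qc, Cd68, Mrc1, Cd14 and Lyz2 were lowest there. Adipocyte markers were at 9.24 in control replicate 1, at 8.13 in the array labelled control replicate 3, between these in control replicate 2 and at 8.73 to 9.79 in the knockout. Fibroblast markers were at 10.79, 10.79 and 10.20 in the controls and at 10.34 to 10.84 in the knockout, and blood cell markers at 6.66, 6.47 and 5.98 and at 6.07 to 6.35. The part of these cell types in the members' values was not tested. The Gapdh 3' over 5' ratios of the arrays labelled control replicates 1 and 3 were 1.97 and 10.5.

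Other genes known to be induced by glucocorticoids were mostly higher in the knockout, without passing the test. Of 22 such genes 21 were measured, 15 higher and 6 lower, 0 of them called in either direction, with a median difference of 0.30, against -0.01 over all genes. In 3 of them, Per1, Arrdc2 and Dusp1, all knockout arrays lay above all controls, against 3.33% of all genes. Arrdc2 differed by 1.67 ± 0.58 (SE) and Per1 by 1.14 ± 0.38, with unadjusted p of 0.0240 and 0.0208 and a limma adjusted p of 0.971. Without the array labelled control replicate 3 these differences were 1.33 and 0.94. Dusp1, a phosphatase that turns off MAP kinases, read 3725, 3163 and 3027 in the knockout and 1657, 2949 and 2565 in control, a difference of 0.50 ± 0.22. The small GTPase gene Rhob had a difference of 0.77 ± 0.33. Without the array labelled control replicate 3 the median of the list was 0.06, with 13 higher and 8 lower. The metallothionein genes Mt1 and Mt2, named after their values were seen, were lower, at -0.63 ± 0.28 and -0.82 ± 0.55, and at -0.93 and -1.42 without the array labelled control replicate 3. Their unadjusted p in that fit was 0.00289 and 0.00623, where 5.99% of all genes had one under 0.05. The atrophy ubiquitin ligase genes Trim63 and Fbxo32 of the same list, also named after their values were seen, had 0.24 ± 0.15 and 0.29 ± 0.42, or 0.18 and -0.06 without that array.

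Of 17 genes of the receptor, its chaperones and the local supply of active steroid 13 were measured, 10 higher and 3 lower, 0 called, with a median of 0.14. Without the array labelled control replicate 3 these were 7 higher and 6 lower with a median of 0.07. Nr3c1, the receptor itself, read 1614, 1563 and 949.0 in the knockout and 1137, 1027 and 1019 in control. Knockout replicate 3 was below all controls, so the groups overlapped, and the difference was 0.34 ± 0.22 (SE; limma adjusted p = 0.971). Nr3c2, the mineralocorticoid receptor, which also binds glucocorticoids, read 175.2, 155.7 and 174.8 in the knockout and 122.9, 128.2 and 131.2 in control, a difference of 0.40 ± 0.20. Its knockout arrays lay above all controls, as did those of 3.33% of all genes. Hsd11b1, the enzyme that regenerates active hormone inside cells, differed by 0.24 ± 0.25. The coactivator genes Ncoa2 and Crebbp had 0.56 ± 0.26 and 0.32 ± 0.29, or 0.27 and -0.01 without the array labelled control replicate 3.

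Genes downstream of or beside the members were followed in 3 lists, of which none had a gene that passed the test. Of 14 genes of amino acid breakdown linked to Klf15, 6 were higher and 8 lower (0 called, median -0.01, or -0.06 without the array labelled control replicate 3). Among them Bcat2, the branched-chain aminotransferase that Klf15 is known to induce, had -0.40 ± 0.24 (SE), Aldh6a1, of valine breakdown, 0.38 ± 0.19, the alanine aminotransferase gene Gpt2 0.12 ± 0.09 and Bckdhb, of the branched-chain ketoacid dehydrogenase, -0.34 ± 0.30. Bckdhb had -0.04 without the array labelled control replicate 3, which read 736.5 against 350.8 and 434.8 in the other controls. Of 24 genes of fat use that fasting and PPAR receptors induce, as they do Pdk4 and Angptl4, 21 were measured, 11 higher and 10 lower (0 called, median 0.01). The 3 without overlap were lower in the knockout, against 5.68% of all genes: the uncoupling protein gene Ucp3 at -1.14 ± 0.20, and the carnitine palmitoyltransferase genes Cpt1a at -0.52 ± 0.23 and Cpt2 at -0.22 ± 0.12. Ppard, a receptor of that pathway, had -0.39 ± 0.23. Of 19 genes of mTORC1 and Akt signalling 18 were measured, 7 higher and 11 lower (0 called, median -0.02). Without the array labelled control replicate 3 these were 4 higher and 14 lower with a median of -0.12. Ndrg1, a substrate of Sgk1, had -0.32 ± 0.17, or -0.20 without that array, and Nedd4l, a ubiquitin ligase that Sgk1 restrains, -0.99 ± 0.56, or -0.29 without the array labelled control replicate 3, which read 2325 against 536.0 and 537.6 in the other controls. Akt1 had -0.35 ± 0.29 and the related kinase gene Sgk3 0.43 ± 0.41, and without that array they had -0.65 (unadjusted p = 0.00654) and -0.03.

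**Figure D5:**
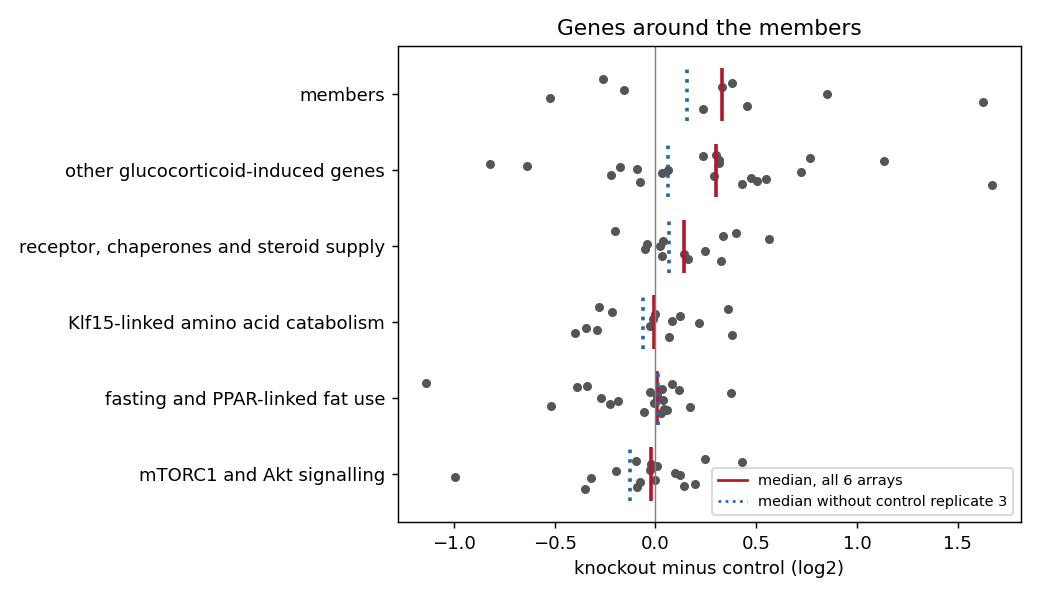
Knockout minus control difference on the log2 scale for each measured gene (grey points) of the 9 members and 5 lists around them, with the list median over all 6 arrays (solid red) and without control replicate 3 (dotted blue). The medians of the members and of other glucocorticoid-induced genes lie at 0.33 and 0.30 over all arrays and at 0.16 and 0.06 without that array.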

How the data were processed

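Total RNA was amplified with the NuGEN Ovation system, per the labels' protocols, and each sample was hybridised to 1 Affymetrix mouse array. The deposited values are probe set intensities made by the authors with GCOS and RMA (versions not given), per the submitters' processing notes. Their linear scale follows from their range, 37.2 to 16069. How the authors scaled them is unknown, and RMA compresses differences of dim genes. Probe sets were named by the platform annotation: 34958 had 1 symbol, 932 several and 9211 were not listed.

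Log2 intensities were fitted with limma 3.58.1 in R 4.3.3 (eBayes with trend, group only, two-sided, Benjamini-Hochberg over all genes). A gene's main probe set was that with the highest mean over 6 arrays; member probe sets were also fitted among all single-gene probe sets. The background was the 95th percentile of 37 measured genes of other tissues, 6.29 on the log2 scale. Of the 18 member probe sets 11 exceeded it in all arrays. The number of arrays limits the precision. No label says that samples are separate animals, so p-values cover only the spread between these samples, perhaps in part a technical one. Xist was high only in replicate 2 of each group, so those arrays were not repeats of the same material as the others. Arrays were also simulated with independent normal noise at each gene's own spread, and 200 genes above background were shifted. There the fit recovered 26% of genes shifted by 1 on the log2 scale and 70% of genes shifted by 2, and it called 6 unshifted genes. No array-wide deviation like that of control replicate 3 was simulated, so these shares may not hold for the real arrays.

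The named genes were all members, up to 4 genes per list with the smallest p above background, Nr3c1, Nr3c2, Hsd11b1 and the 6 nearest profiles, and Trim63, Fbxo32, Mt1 and Mt2 after their values were seen. Members and lists were chosen with earlier results of these data known.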

Additional observations from a re-analysis of the deposited data

How the results depend on the processing

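Under 20 alternatives 0 members, 0 genes of the lists around them and 0 of all genes passed an adjusted p of 0.05, as did 0 member probe sets under the 18 alternatives run for them. Before adjustment 469 genes had a p under 0.05 in limma and 615 with ordinary t statistics, and the alternatives ranged from 276 genes without knockout replicate 2 to 1854 with array weights, where the lowest adjusted p was 0.0579. Of 180 values for single members 5 turned their sign, all of Angptl4: -0.0206 with array weights, -0.0414 with probe sets of suffix x or s set aside, -0.17 with the Gapdh ratio as a term, and a range of -0.28 to 0.69 over the fits that left out a replicate (below 0 without knockout replicate 3 or control replicate 3). The fits with the Gapdh ratio as a term, with probe sets set aside and without both arrays of high Gapdh ratio were chosen after seeing the data. The median of the members was 0.12 with the mean of probe sets, 0.17 without both arrays of high ratio, and 0.16 to 0.50 over the fits without a replicate. A block for the replicate number cannot move the median from 0.33, because both groups hold the same numbers. In that fit 0 members had an unadjusted p under 0.05. The Xist term cannot move the differences either, so neither fit could turn a sign. Deviations of same-numbered arrays correlated at 0.19, -0.15 and -0.11, so the numbers were not treated as pairs. Dim probe sets limit what can be read for Angptl4.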
